A study of Mus musculus with 4 samples.

Results

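The interleukin 1 system and the inflammasome were followed in macrophages sorted from injured sciatic nerve, through 10 transcripts out of 24028 in the expression table. The genes were chosen by name: the cytokines Il1a, Il1b and Il18, the antagonist Il1rn, the receptors Il1r1, Il1r2 and Il1rap, and the inflammasome genes Nlrp3, Pycard and Casp1. The cells came from female mice of the strain Cx3cr1-GFP+/- :Ccr2-RFP+/-, so that animals of both ages carried 1 reporter allele at each locus, and were taken 3 days after nerve injury. The labels describe the sorted macrophages as positive for Ccr2 and Cx3cr1. Aged animals of 15 months gave 2 libraries and young animals of 3 months gave 2, each library being a pool drawn from the 7 to 8 mice listed per time point. Uninjured nerve and other times are not analysed here, so every value below belongs to the injured state and to a single sort gate. Differences are aged minus young.

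Interleukin 1 alpha and interleukin 1 beta act on the same receptor, IL1R1, which signals together with the accessory chain IL1RAP. Interleukin 1 beta and interleukin 18 are made as inactive precursors and are cut to their active form by caspase-1, which is itself activated on the inflammasome, a complex of the sensor NLRP3, the adaptor ASC (the product of Pycard) and procaspase-1. Interleukin 1 alpha is active without that cut. The antagonist encoded by Il1rn occupies IL1R1 without signalling, and IL1R2 is a decoy that binds the cytokine but has no signalling domain. In injured peripheral nerve, interleukin 1 from Schwann cells and recruited macrophages is known to induce nerve growth factor in the surrounding cells. Transcript levels do not show how much cytokine was processed or released.

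The 2 agonist genes Il1a and Il1b lie on chromosome 2 on the minus strand, 54.6 kb apart. The stretch of 250 bases before the start of each is shown because both of these neighbours were higher in young replicate 1 than in young replicate 2. The same held for 8 of the 10 members, so it does not set this pair apart. The stretch before Casp1 on chromosome 9, plus strand, is also shown. Casp1 was the member whose aged and young values lay apart by more than the gap within either pair of libraries. The sequences are from RefSeq (GRCm38.p6), written 5′ to 3′ along the gene at chr2:129371140-129371389 for Il1b, chr2:129309973-129310222 for Il1a and chr9:5298267-5298516 for Casp1. Capitals mark matches to the motifs searched on both strands, which were TATAAA, the AP-1 motif TGANTCA, the NF-kB-type motif GGNNTTTCC and the interferon-response-type motif GAAANNGAA.
Il1b: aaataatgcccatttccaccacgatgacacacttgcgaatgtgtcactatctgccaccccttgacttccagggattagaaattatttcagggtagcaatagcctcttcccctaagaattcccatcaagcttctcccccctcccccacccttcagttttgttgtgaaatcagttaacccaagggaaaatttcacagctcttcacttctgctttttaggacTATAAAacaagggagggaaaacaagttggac
Il1a: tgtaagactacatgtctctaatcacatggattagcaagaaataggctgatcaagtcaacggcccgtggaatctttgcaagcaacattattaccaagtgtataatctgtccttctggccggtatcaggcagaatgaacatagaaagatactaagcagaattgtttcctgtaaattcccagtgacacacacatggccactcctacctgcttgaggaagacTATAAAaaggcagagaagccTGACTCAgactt
Casp1: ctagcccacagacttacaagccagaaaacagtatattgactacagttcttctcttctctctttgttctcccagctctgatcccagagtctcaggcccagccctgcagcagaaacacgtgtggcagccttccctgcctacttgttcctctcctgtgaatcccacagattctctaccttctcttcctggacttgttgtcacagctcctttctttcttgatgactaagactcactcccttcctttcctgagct
Both agonist promoters held TATAAA close to the start, its first base 31 bases before it in Il1b and 32 bases before it in Il1a, and Il1a also held TGACTCA with its first base 12 bases before the start. Of 32851 promoter windows of this length, 12.4% held TATAAA, 6.75% the AP-1 motif, 4.93% the NF-kB-type motif and 7.13% the interferon-response-type motif. The Casp1 window held none of these letter patterns. Among members whose windows are not shown, Nlrp3 and Il1rn held the NF-kB-type motif, Il1rn also the AP-1 motif, and Il18 the TATAAA motif on the opposite strand. These are matches of letters and were not tested for binding.

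Values are FPKM, reads scaled to the length of the gene and to the read total, restored to each library's own read total (8613360 and 9986706 reads in the aged libraries, 11489336 and 10765234 in the young libraries). The libraries detected between 19897 and 21361 genes. All 10 members were above 0 in every library and passed the minimum mean of 1 FPKM for testing, with 89 to 30108 reads per member and library. Macrophage and monocyte markers summed to 13487 and 10077 FPKM in the aged libraries and 14936 and 12741 FPKM in the young libraries, with Lyz2, Cd68 and C1qb the highest. The 11 neutrophil markers measured, of 12 listed and with Mmp9, Csf3r and Mmp8 highest, summed to 77.3 and 94.0 FPKM in aged and 74.9 and 63.2 FPKM in young libraries. Fibroblast markers (6 of 6 measured, led by Dcn, Col3a1 and Col1a2) summed to 87.6 and 62.7 FPKM in aged libraries, against 39.4 FPKM in young replicate 1 and 191 FPKM in young replicate 2. Endothelial markers (6 of 6, with Pecam1, Cldn5 and Kdr highest) summed to 9.32 and 12.6 FPKM in aged and 24.5 and 19.0 FPKM in young libraries. Of these, Cldn5 was 16.9 FPKM in young replicate 1 and 0.459 FPKM in young replicate 2. Schwann cell markers (8 of 8, with Pmp22, Mbp and Ngfr highest) summed to 86.9 and 66.2 FPKM in aged and 77.9 and 85.4 FPKM in young libraries. Pmp22 was 51.6 FPKM in young replicate 1 and 30.2 FPKM in young replicate 2. Of the 7 tested, it was the only 1 higher in young replicate 1. Mast cell and basophil markers (8 of 8, with Hdc, Mcpt4 and Cma1 highest) summed to 12.8 and 8.00 FPKM in aged and 15.8 and 10.1 FPKM in young libraries. T and NK cell markers (6 of 7, with Cd3g, Klrb1c and Ncr1 highest) summed to 5.64 and 99.7 FPKM in aged and 4.80 and 6.82 FPKM in young libraries, where 97.8 FPKM of aged replicate 2 was Cd3g. No marker of these lists was at 0 in all 4 libraries.

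The members covered a wide range of levels, and their order was led by the agonist Il1b. Il1b averaged 974 FPKM over the 4 libraries and ranked 35 of 24028 genes by level. Il1rn was next at 358 FPKM and then Il1a at 83.0 FPKM, and this order of the 3 held within each library. A middle group, in which the libraries of neighbours overlapped, held Nlrp3 (57.5 FPKM), Il1r2 (56.1 FPKM), Il18 (36.3 FPKM) and Casp1 (34.0 FPKM), and the range of Il1a overlapped those of Nlrp3, Il1r2, Il18 and Casp1. Pycard averaged 14.5 FPKM, with all of its libraries below those of Casp1. The signalling receptor chains were lowest, with Il1rap at 3.49 FPKM and Il1r1 at 3.10 FPKM, and their libraries overlapped.

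**Figure D1:**
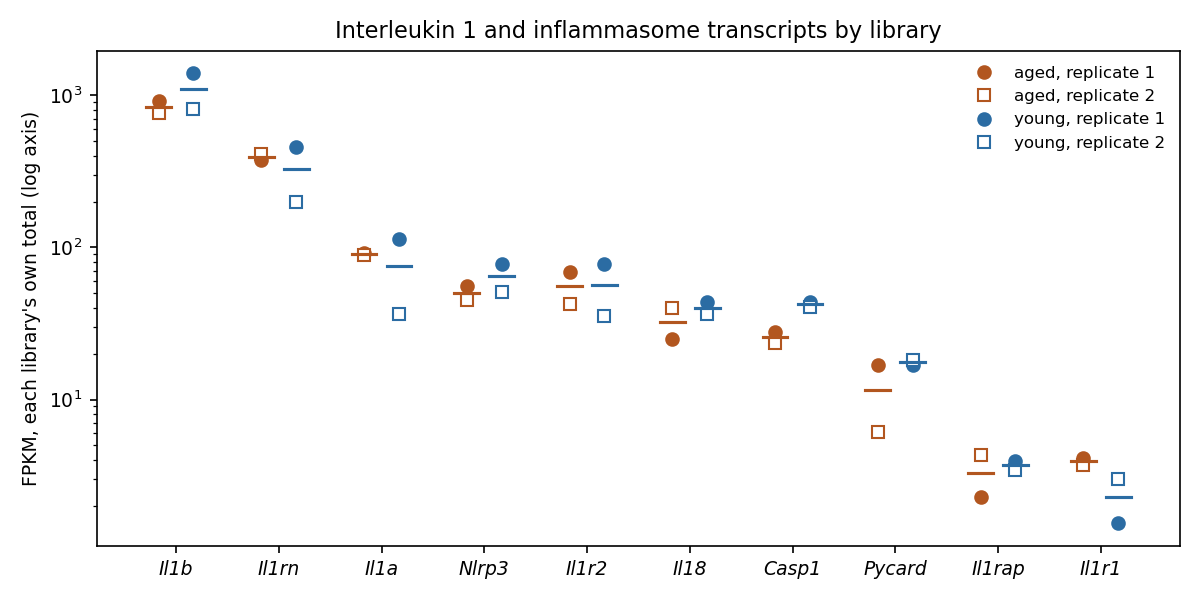
Level of each member in each library, in FPKM on a log axis, with aged libraries left of young libraries, filled circles for replicate 1, open squares for replicate 2 and a bar for the mean of the age. Il1b lies between 770.0 and 1395 FPKM in all libraries and Il1r1 between 1.54 and 4.15 FPKM, and the ages are apart in Casp1 and Il1r1 only.

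No member passed the test between the ages. limma, fitted over all 11656 genes with a mean of at least 1 FPKM, called 0 of the 10 members and 0% of all genes at an adjusted p below 0.05, and the lowest adjusted p was 0.740 among the members and 0.567 among all genes. At an unadjusted p below 0.05 there was 1 member, Casp1, beside 6.63% of all genes (773). The aged pair was wholly below the young pair in 1 of 10 members (Casp1), against 26.2% of all genes tested, and wholly above it in 1 (Il1r1), against 11.8%. Both shares are near or under those of the table as a whole. The median log2 difference of the 10 members was -0.25, beside a median of -0.09 over all genes. It was 0.003 without young replicate 1. Of the members, 6 were lower and 4 higher in aged cells. This is near the share of the table, where 6937 of 11656 genes were lower and 4719 higher. The replicates are pools, and nothing in the labels says which mice they hold, so the p-values measure only the spread between pools, which may be technical. In sorted bulk cells, fewer expressing cells and less RNA per cell cannot be told apart.

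**Figure D2:**
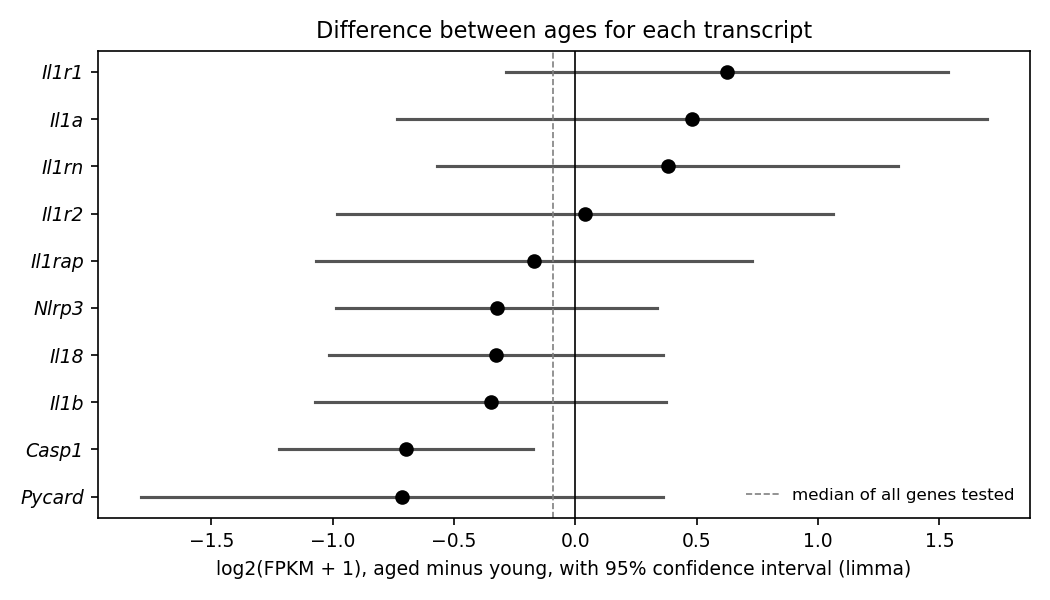
Difference between the ages for each member, as log2(FPKM + 1), aged minus young, with the 95% confidence interval from limma, and a dashed line at the median of all genes tested (-0.09). The interval of Casp1, -1.22 to -0.18, is the one that leaves out 0, before adjustment over all genes.

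Among the agonists, Il1b (Entrez 16176, chr2:129364570-129371139, GRCm38), the precursor cytokine that needs caspase-1, was 913 and 770.0 FPKM in the aged libraries and 1395 and 818 FPKM in the young libraries. Young replicate 1 stood above the other 3, and aged replicate 1 lay between the young libraries, so the ages overlapped. Il1b averaged 841 ± 101 FPKM in aged and 1107 ± 408 FPKM in young cells (SD, n = 2 each). The log2 difference was -0.35 (SE 0.30, limma adjusted p 0.803), with a 95% interval from 0.48-fold to 1.30-fold. Without young replicate 1 the log2 difference was 0.04.

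Il1a (Entrez 16175, chr2:129299610-129309972), which needs no cut to be active, was 91.9 and 89.5 FPKM in aged libraries and 114 and 36.5 FPKM in young libraries. The aged libraries were nearly equal and lay inside the span of the young libraries, which differed 3.13-fold. Its log2 difference of 0.48 (SE 0.50, limma adjusted p 0.844) was -0.33 without young replicate 2 and 1.29 without young replicate 1. Its exons overlap Gm14023 on the opposite strand over 11.25% of their length. No source used here says whether reads were assigned by strand, so reads of Il1a and Gm14023 cannot be told apart there.

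Il18 (Entrez 16173, chr9:50554827-50581840), the other cytokine matured by caspase-1, was 25.1 and 39.9 FPKM in aged libraries and 43.6 and 36.6 FPKM in young libraries. Aged replicate 1 was the lowest, and aged replicate 2 lay between the young values. The log2 difference was -0.33 (SE 0.28, limma adjusted p 0.808) and came to -0.002 without aged replicate 1.

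The antagonist Il1rn (Entrez 16181, chr2:24336853-24351494) was 373 and 409 FPKM in aged libraries and 455 and 197 FPKM in young libraries. As with Il1a, both aged values lay between the young values, which were the highest and the lowest of the 4. It averaged 391 ± 25.5 FPKM in aged and 326 ± 182 FPKM in young cells (SD, n = 2 each), a log2 difference of 0.38 (SE 0.39, limma adjusted p 0.842). Its interval ran from 0.67-fold to 2.51-fold. The log2 difference was -0.22 without young replicate 2 and 0.98 without young replicate 1.

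Of the receptors, the decoy Il1r2 (Entrez 16178, chr1:40074079-40125231) was 69.0 and 42.3 FPKM in aged libraries and 77.5 and 35.5 FPKM in young libraries. Within each age replicate 1 was above replicate 2, and the means, 55.7 ± 18.9 FPKM in aged and 56.5 ± 29.6 FPKM in young cells, were close. Its interval ran from 0.51-fold to 2.09-fold (limma adjusted p 0.988). Its log2 difference of 0.04 was -0.51 without young replicate 2 and -0.31 without aged replicate 1. Neutrophils are known for high Il1r2. The 11 neutrophil markers summed to 77.3 and 94.0 FPKM in aged and 74.9 and 63.2 FPKM in young libraries. Within the young pair their sum was higher where Il1r2 was higher, and within the aged pair it was lower there. Single genes weighed on these sums. Mmp9 was 28.6 and 35.9 FPKM in aged and 29.5 and 15.95 FPKM in young libraries, and Camp 0.581 and 9.36 FPKM in aged libraries. Csf3r was lower in young replicate 1 (24.3 FPKM) than in young replicate 2 (27.8 FPKM). The part of neutrophils in the Il1r2 values was not tested.

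The signalling receptor Il1r1 (Entrez 16177, chr1:40225080-40317257), which begins 99.8 kb beyond Il1r2, was 4.15 and 3.70 FPKM in aged libraries and 1.54 and 3.01 FPKM in young libraries. Both aged libraries were above both young libraries, but the gap within the young pair (0.66 on the log2 scale) was as wide as the age difference of 0.63 (SE 0.37, limma adjusted p 0.761). The log2 difference was 0.30 without young replicate 1 and 0.95 without young replicate 2. The values rest on 180 and 186 reads in aged and 89 and 163 reads in young libraries, and the exact Poisson 95% interval of young replicate 1 was 1.24 to 1.89 FPKM, which covers counting error only. Fibroblasts and endothelial cells are known to express Il1r1. Fibroblast markers, in the same order as above, summed to 87.6 and 62.7 FPKM in aged and 39.4 and 191 FPKM in young libraries, so they were lowest where Il1r1 was lowest but highest in the other young library and not where Il1r1 was highest. Endothelial markers summed to 9.32 and 12.6 FPKM in aged and 24.5 and 19.0 FPKM in young libraries. That sum was highest where Il1r1 was lowest, in young replicate 1, where 16.9 FPKM of it was Cldn5. The part of these cells in the Il1r1 values was not tested. Il1rap (Entrez 16180, chr16:26581704-26730117), the accessory chain, was 2.27 and 4.30 FPKM in aged libraries and 3.93 and 3.46 FPKM in young libraries, with both extremes in aged cells (log2 difference -0.17, SE 0.37, and 0.18 without aged replicate 1).

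Within the inflammasome, Casp1 (Entrez 12362, chr9:5298517-5307265), the protease that matures both Il1b and Il18, was lower in both aged libraries without passing the test. It was 27.7 and 23.7 FPKM in aged libraries and 43.7 and 40.8 FPKM in young libraries, on 361 and 358 reads against 760 and 664 reads. Both aged libraries were below both young libraries, and the age difference was wider than the gap within either pair (0.22 aged, 0.10 young, log2). Casp1 averaged 25.7 ± 2.83 FPKM in aged and 42.2 ± 2.09 FPKM in young cells (SD, n = 2 each), a ratio of 0.608. The log2 difference was -0.70 (SE 0.21), with an interval from 0.429-fold to 0.885-fold. Its unadjusted limma p of 0.0168 ranked 247 of 11656 genes, and the adjusted p was 0.740, so it did not pass. The direction was lower in aged cells in each of the 12 other settings tried, with log2 differences of -0.81 to -0.57. Leaving out a library could not turn it, since both aged values lay below both young values. No filter, the minimum of 5 FPKM, no trend and the replicate block left the estimate at -0.70, since they cannot change a difference of means. The unadjusted limma p was above 0.05 with the values as deposited (0.164), with median-ratio scaling (0.0813), without young replicate 1 (0.0775), without young replicate 2 (0.0528) and without aged replicate 2 (0.0582). No stretch of 50 bases of Casp1 was found in the transcripts of another annotated gene. The sum of the endothelial markers, 9.32 and 12.6 FPKM in aged and 24.5 and 19.0 FPKM in young libraries, was also lower in both aged libraries. Cldn5 made up 16.9 FPKM of that sum in young replicate 1. Pecam1 overlapped between the ages, at 5.05 and 5.74 FPKM in aged and 2.77 and 6.58 FPKM in young libraries. Of the 4 endothelial markers tested, 1 (Kdr) was lower in both aged libraries. The monocyte marker Ly6c2, named after its values were seen, was also lower in both aged libraries. It was 91.2 and 85.0 FPKM in aged and 125 and 203 FPKM in young libraries (unadjusted limma p 0.0199, adjusted p 0.740). Of the 12 macrophage and monocyte markers, 3 were wholly lower in the aged pair, against 26.2% of all genes tested. Csf1r was the 1 wholly higher, against 11.8%, at 278 and 262 FPKM in aged and 178 and 256 FPKM in young libraries. Ccr2 overlapped between the ages, at 345 and 400 FPKM in aged and 276 and 356 FPKM in young libraries. Fibroblast markers overlapped between the ages, at 87.6 and 62.7 FPKM in aged and 39.4 and 191 FPKM in young libraries. The part of these cells in the Casp1 values was not tested.

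Nlrp3 (Entrez 216799, chr11:59541568-59566956), the sensor, was 56.2 and 44.8 FPKM in aged libraries and 77.6 and 51.3 FPKM in young libraries. Young replicate 1 was the highest, and aged replicate 1 was above young replicate 2, so the ages overlapped (log2 difference -0.32, SE 0.27, limma adjusted p 0.801, and -0.03 without young replicate 1). Pycard (Entrez 66824, chr7:127989708-127993867), the adaptor, was 16.8 and 6.14 FPKM in aged libraries and 16.8 and 18.2 FPKM in young libraries. Aged replicate 2 stood alone at 131 reads, against 309 reads in aged replicate 1, and the other 3 libraries lay close together. The log2 difference of -0.71 (SE 0.44, limma adjusted p 0.761) therefore rests on that library and was -0.06 without it, and -1.37 without aged replicate 1 (unadjusted limma p 0.00364). The exons of Pycard overlap the transcript Gm45205 on the opposite strand over 12.76% of their length, so its values carry the same uncertainty as those of Il1a. For Il1b and Il1rap the overlaps, with Il1bos and Gm20319, were 1.31% and 4.86%. All these shares refer to GENCODE M21 exons and not to the gene models behind the deposited values. The exons of Pycard span 3800 bases there, while its values came out whole on a length of 2135 bases.

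In several members the young pools lay further apart than the ages did. Young replicate 1 was above young replicate 2 by 3.13-fold in Il1a, 2.30-fold in Il1rn, 2.18-fold in Il1r2, 1.71-fold in Il1b and 1.51-fold in Nlrp3. Of these, Il1a, Il1b, Il1rn and Nlrp3 are known to be induced by inflammatory stimuli. The cause of the gap between the young pools was not tested. Over all 10 members, 8 were higher in young replicate 1, against 32.4% of all genes tested, whose median difference between these libraries was -0.18 on the log2 scale. In Casp1, Il18 and Il1rap the ratio of young replicate 1 to young replicate 2 was 1.07, 1.19 and 1.14, in Pycard 0.92 and in Il1r1 0.51. In 6 of the 10 members the gap within the young pair was wider than the age difference, and the same held for 53.6% of all genes, so this count was near that of the table. In the aged pair Il1a, Il1b and Il1rn lay within 1.19-fold of each other. Fibroblast markers went the other way in the young pair, 0 of 6 being higher in young replicate 1. Their part in these differences was not tested.

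**Figure D3:**
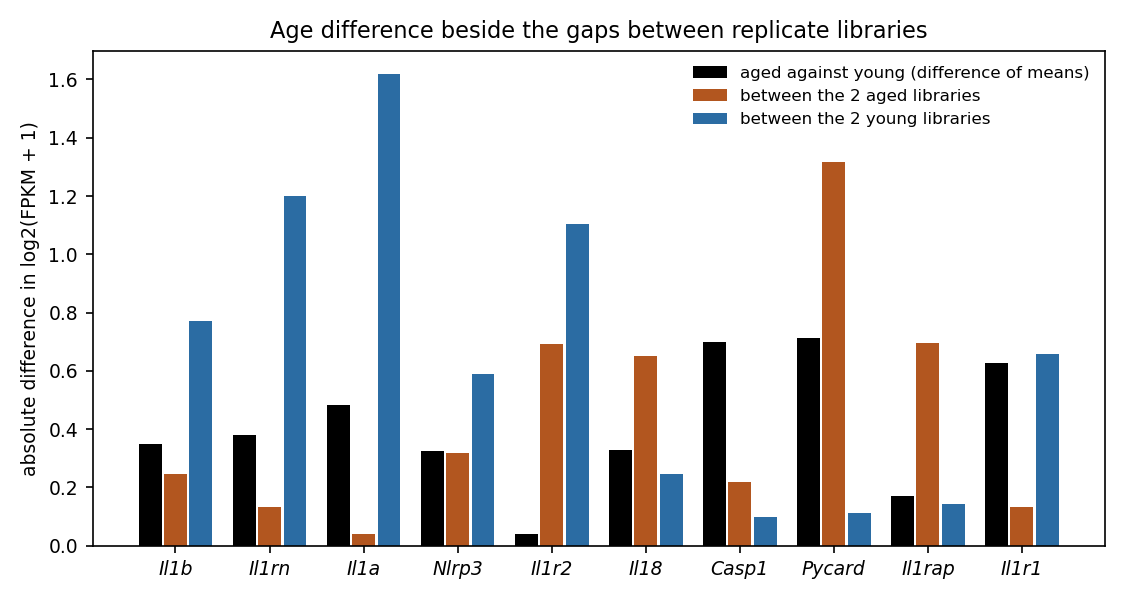
Absolute difference in log2(FPKM + 1) between the ages (black), within the aged pair (orange) and within the young pair (blue) for each member. The young gap reaches 1.62 in Il1a and 1.20 in Il1rn, the aged gap reaches 1.32 in Pycard, and the age difference exceeds both gaps in Casp1.

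Since the members of a pair are read from the same library, their ratio does not depend on the library's read total. The ratio of the antagonist Il1rn to the agonist Il1b was 0.408 and 0.531 in aged libraries and 0.326 and 0.241 in young libraries. Both aged ratios were above both young ratios, although neither gene alone separated the ages. The difference in log2 ratio was 0.73, beside gaps of 0.38 within the aged and 0.43 within the young pair (exact permutation test, two-sided, p = 0.333, the smallest that 2 against 2 libraries allow). In each library Il1b remained the more abundant of the pair. The difference kept its sign in all 6 other settings, from 0.51 to 0.97, and the smallest values came without young replicate 2 and without aged replicate 2. Leaving out a library could not turn the sign, because the ratios of the ages did not overlap. A pseudocount of 1 left the difference at 0.73.

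The ratio of Il1b to Il1a was 9.93 and 8.60 in aged libraries and 12.2 and 22.4 in young libraries, again without overlap. The log2 difference of -0.84 was about as wide as the gap of 0.87 within the young pair (exact permutation test, two-sided, p = 0.333), and was -0.40 without young replicate 2. The ratio of the decoy Il1r2 to the signalling receptor Il1r1 was 16.6 and 11.4 in aged libraries and 50.3 and 11.8 in young libraries. The ages overlapped (exact permutation test, two-sided, p = 0.667), and only young replicate 1 stood apart: without it the log2 difference of -0.82 became 0.22. The 3 ratios were the only ones computed.

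**Figure D4:**
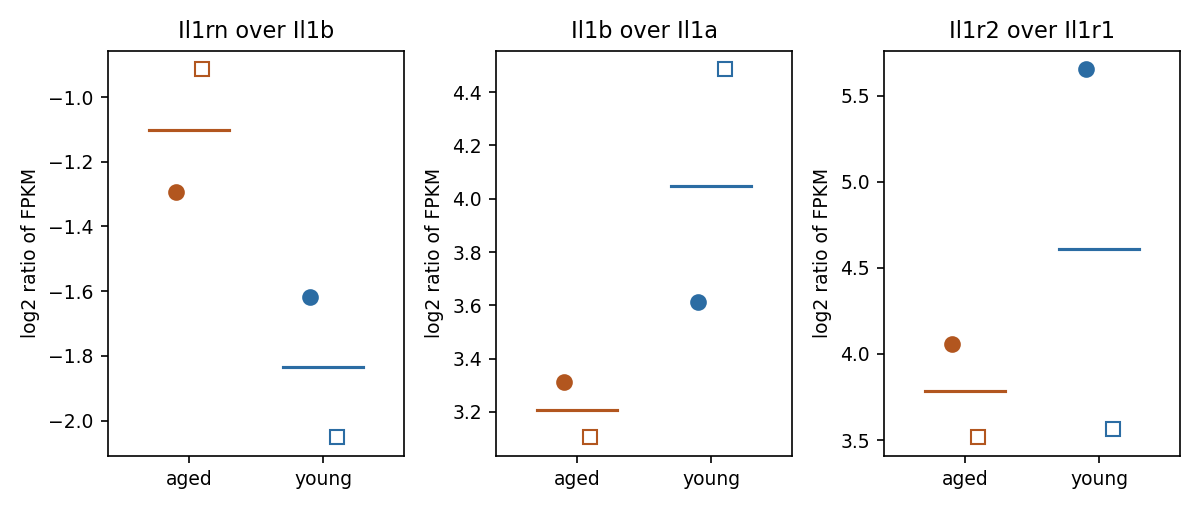
Log2 ratio of FPKM within each library for 3 pairs of members, aged left of young, with filled circles for replicate 1, open squares for replicate 2 and a bar for the mean. The aged and young libraries do not overlap in Il1rn over Il1b or in Il1b over Il1a, and they overlap in Il1r2 over Il1r1.

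Genes with a profile close to a member over the 4 libraries were sought among 2856 genes with a mean of at least 20 FPKM, by the root mean square difference of centred log2 values. Closest to Il1b were Pmp22 (0.02), Cd69 (0.04) and Serpinb8 (0.05), and Pmp22 is also among the Schwann cell markers given above. Closest to Il1rn were Bhlhe40 (0.03), Slc25a33 (0.07) and Maff (0.10). Bhlhe40, a transcriptional repressor, was 213 and 242 FPKM in aged and 273 and 119 FPKM in young libraries. Closest to Casp1 were Evi2a (0.03), Polb (0.03) and Cxcl10 (0.04), and the chemokine Cxcl10 was 23.5 and 21.6 FPKM in aged and 39.4 and 36.8 FPKM in young libraries. With 4 points each, such likeness is a description only.

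Further genes of the pathway were read by role from lists of 78 entries, of which 73 had a row and 62 were tested. limma called 0 of the 62 at an adjusted p below 0.05, as it called 0% of all genes, and their median log2 difference was -0.09, the same as over all genes. At an unadjusted p below 0.05, 1 was higher and 2 were lower, beside 6.63% of all genes (205 higher and 568 lower). The aged pair was wholly below the young pair in 13 and wholly above it in 7, that is near the shares of the table given above.

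Other ligands and receptors of the family were scarce. Of 14 with a row 7 were tested, and 0 passed in either direction. Il18rap, the accessory chain of the interleukin 18 receptor, was 9.47 and 9.79 FPKM in aged and 9.13 and 8.36 FPKM in young libraries, and Il18bp, the secreted binder of interleukin 18, was 6.92 and 2.30 FPKM in aged and 3.96 and 4.69 FPKM in young libraries. The alarmin Il33 was 2.68 and 4.54 FPKM in aged and 3.38 and 5.64 FPKM in young libraries. Il1rl2, the receptor for interleukin 36, was 2.56 and 6.57 FPKM in aged and 3.70 and 2.48 FPKM in young libraries. All 4 lay far below Il1b in every library.

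Of the sensors and their triggers, 13 of 15 were tested and 0 passed, with 10 lower and 3 higher mean values in aged cells (median -0.16). Over all 11656 genes tested, 6937 were lower and 4719 higher. Txnip, which binds thioredoxin and can bind NLRP3, was 192 and 212 FPKM in aged and 193 and 238 FPKM in young libraries. Mefv, which encodes the sensor pyrin, was 65.2 and 128 FPKM in aged and 132 and 68.7 FPKM in young libraries, with the pools of each age far apart. Nek7, an NLRP3 partner, was 31.4 and 35.2 FPKM in aged and 39.4 and 40.5 FPKM in young libraries, and P2rx7, the ATP-gated channel, was 35.1 and 27.1 FPKM in aged and 29.5 and 32.2 FPKM in young libraries. Both aged values of Nek7 were below both young values, by a log2 difference of -0.26 (SE 0.21).

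Of the effectors of pyroptosis and related proteases, 10 of 12 were tested and 0 passed (median -0.12). Ninj1, which ruptures the membrane of dying cells, was 84.4 and 99.1 FPKM in aged and 100.3 and 80.1 FPKM in young libraries. Casp8 was 66.3 and 91.0 FPKM in aged and 88.0 and 82.6 FPKM in young libraries, and Capn2, a calpain, was 57.4 and 73.2 FPKM in aged and 78.3 and 74.6 FPKM in young libraries. In Capn2 both aged values were the lower ones (log2 difference -0.23, SE 0.22). Gsdmd, the pore-forming target of caspase-1, was 57.0 and 34.5 FPKM in aged and 41.5 and 71.5 FPKM in young libraries, overlapping between the ages.

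Downstream of the receptor, all 17 signalling genes were tested and 0 passed (median -0.06). The adaptor Myd88 was 161 and 115 FPKM in aged and 132 and 155 FPKM in young libraries. Tollip, an inhibitor of the receptor complex, was 60.9 and 41.6 FPKM in aged and 55.0 and 52.5 FPKM in young libraries. Tab2 was 47.6 and 41.9 FPKM in aged and 45.0 and 59.2 FPKM in young libraries, and Irak2, a kinase of the receptor complex, was 43.7 and 39.0 FPKM in aged and 46.5 and 29.4 FPKM in young libraries. Each of these overlapped between the ages.

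All 15 genes known to be induced by interleukin 1 were tested and 0 passed (median -0.13). Ccl2 was 765 and 660.1 FPKM in aged and 1778 and 637 FPKM in young libraries, with young replicate 1 far above the other 3. Cxcl2 was 452 and 511 FPKM in aged and 637 and 434 FPKM in young libraries, again highest in young replicate 1. Nfkbiz, a nuclear cofactor of NF-kB, was 572 and 616 FPKM in aged and 501 and 418 FPKM in young libraries. Both aged values of Nfkbiz were above both young values (log2 difference 0.37, SE 0.20). Its relative Nfkbia, which encodes an inhibitor of NF-kB, was 482 and 429 FPKM in aged and 433 and 305 FPKM in young libraries. In 12 of the 15 young replicate 1 was above young replicate 2, against 32.4% of all genes tested. The other pathway lists did not share this. The count was 1 of 13 in the sensors, 5 of 17 in signalling, 5 of 10 in the effectors and 3 of 7 in the receptors and ligands. What set the young pools apart was not tested.

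**Figure D5:**
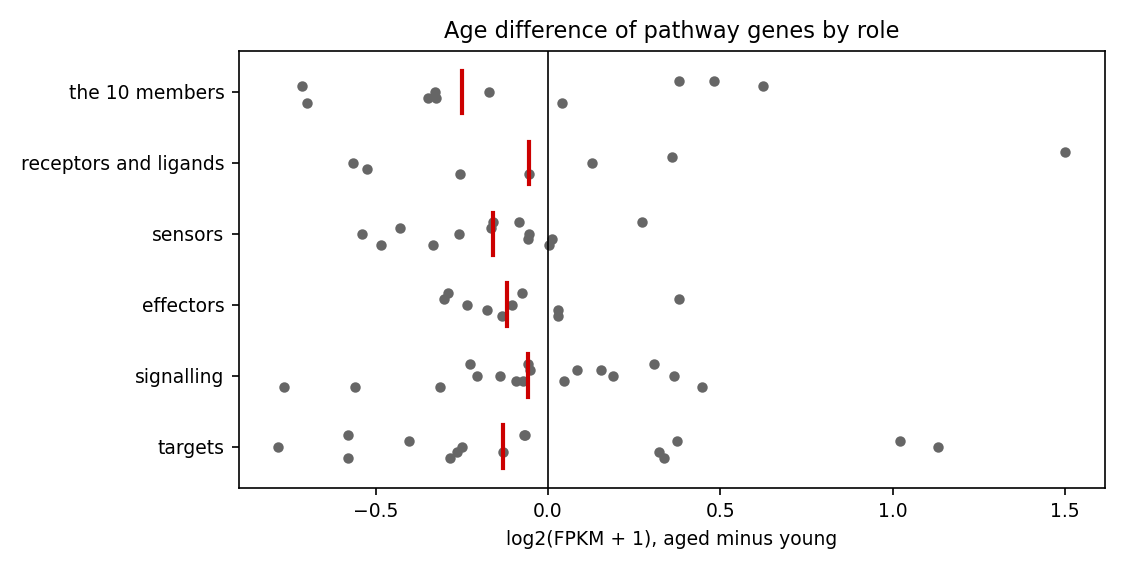
Log2 difference between the ages, aged minus young on log2(FPKM + 1), of each tested gene (grey points) in the 10 members and in 5 lists of pathway genes by role, with the median of each in red. The medians lie between -0.25 and -0.06, and single genes spread to both sides of 0 in each row.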

How the data were processed

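RNA was sequenced from 4 libraries of sorted nerve macrophages, 2 aged and 2 young, named by the sample titles. Per the labels' protocols, RNA was reverse transcribed with oligo-dT primers and amplified by multiple displacement, which can copy transcripts unevenly. The authors deposited FPKM per gene. The submitters' processing notes list bcl2fastq, BWA 0.7.12, DESeq2 and mm10, and no source used here names the counter, the annotation or the use of strand. The deposited FPKM had been divided by 12 read totals in a cycle over genes sorted by Entrez ID, so each was multiplied by its divisor and divided by its library's own total. With that, the values of each member became whole reads on a whole length (10 of 10, within 0.01 bases). The reads given are the smallest whole numbers with which this held.

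Tests used limma 3.58.1 in R 4.3.3 on log2(FPKM + 1), empirical Bayes with an intensity trend, all genes with a mean of at least 1 FPKM, Benjamini-Hochberg, threshold 0.05, checked on simulated data. Ratios used an exact permutation test. Coordinates and shared 50-base stretches are from GENCODE M21 (GRCm38). Alternatives were pseudocount 0.1, a minimum of 5 FPKM or none, deposited values, quantile and median-ratio scaling, no trend, each library left out, and the replicate number as a block. Named were all members, the 4 highest genes of each list (3 for markers) and the 3 nearest profiles of Il1b, Il1rn and Casp1, gene models without a common name skipped. Members and lists were chosen with earlier results of these data known.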

Additional observations from a re-analysis of the deposited data

How the results depend on the processing

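The count of members called was 0 in all 13 settings, and so was that of the pathway genes. Over all genes limma called 19 without aged replicate 1 (1512 at an unadjusted p below 0.05) and 1 with the replicate block (906), against 0 in the others (384 to 1021). The replicate numbers pair no samples in the labels, and the deviations of same-numbered libraries had a correlation of -0.0004 over 11656 genes. With the values as deposited the median of all genes moved to -0.31 and the log2 difference of Il1r2 became -0.19. With a single library left out, the median of the members ranged from -0.48 to 0.0027, the log2 difference of Il1a from -0.33 to 1.29, of Il1b from -0.73 to 0.0352, of Il1rn from -0.22 to 0.98, of Il1r2 from -0.51 to 0.59 and of Il1rap from -0.52 to 0.18. The log2 ratio of Il1r2 to Il1r1 then ranged from -1.87 to 0.22. The sign turned without young replicate 1 in Il1b and in the ratio of Il1r2 to Il1r1, without young replicate 2 in Il1a, Il1rn and Il1r2, and without aged replicate 1 in Il1r2 and Il1rap. The cause was not tested. With 2 pools per age, the median half-width of the members' 95% intervals was 0.90 on the log2 scale. Casp1, Il18, Nlrp3, Pycard and Il1r1 kept their direction in each setting in which they were tested, though with a single library left out Il1r1 ranged from 0.30 to 0.95 and Pycard from -1.37 to -0.06. For Casp1 and Il1r1, whose ages did not overlap, leaving out a library could not turn the direction. For any member tested, no filter, the minimum of 5 FPKM, no trend and the replicate block could not change the log2 difference.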

Other observations

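Among the pathway genes, the 3 with an unadjusted limma p below 0.05 include a pair that restrain the response, and they differed in opposite directions. They are named here after their values were seen. Zc3h12a, which encodes the RNase regnase-1 that degrades inflammatory mRNAs, was 111 and 81.6 FPKM in aged libraries and 39.6 and 54.3 FPKM in young libraries (log2 difference 1.02, SE 0.26, adjusted p 0.740). Both aged values were above both young values. Irak3, a pseudokinase that restrains signalling from the interleukin 1 and Toll-like receptors, was 15.0 and 21.4 FPKM in aged libraries and 29.2 and 33.4 FPKM in young libraries (log2 difference -0.77, SE 0.26, limma adjusted p 0.740). Ube2n, a ubiquitin-conjugating enzyme of the same pathway, was 14.3 and 12.6 FPKM in aged libraries and 19.6 and 21.0 FPKM in young libraries. None of the 3 passed over all genes.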
